A study of Mus musculus with 12 samples.

Results

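Glycolysis and hypoxia response genes of the mouse aorta were examined as a set of 38 named genes, taken by name from the arrays. The set was chosen with earlier results of these data known. All 38 had a probe under that name and all 38 passed the filter on dim probes, out of 22769 genes kept in all. They were grouped by role into hexose entry (5 genes), upper glycolysis (7), regulators of phosphofructokinase (2), lower glycolysis (8), lactate and monocarboxylate handling (4), pyruvate dehydrogenase kinases (2), oxygen sensing and hypoxia-inducible factors (4) and other hypoxia-induced genes (6). Total aortic RNA had been hybridized to 12 one-color Agilent arrays in 4 groups of 3. The WT mice were male Socs3 fl/fl littermates without Cre, and the smSocs3-KO mice were male Socs3 fl/fl mice with an SM22-Cre transgene, meant to delete Socs3 in smooth muscle. Whether other cells of the aorta kept the gene was not tested. Both genotypes carried the floxed allele and came from a mixed 129S5/SvEvBrd, C57BL6 and SJL background, and the labels used here give no age. Aortas were taken either without challenge or after 3 days of BAPN (150 mg/kg/day), an inhibitor of lysyl oxidase cross-linking, given together with angiotensin II (AngII, 1000 ng/kg/min) by osmotic minipump to cause aortic dissection. The comparisons asked how the aortic wall responded to BAPN+AngII in each genotype and whether loss of Socs3 in smooth muscle altered the wall before or after it.

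Glycolysis splits glucose into pyruvate in the cytosol. Its upper steps spend ATP, with phosphofructokinase as the main control point, and its lower steps return ATP and NADH. Lactate dehydrogenase and monocarboxylate transporters dispose of the pyruvate as lactate, while pyruvate dehydrogenase kinases hold back its oxidation in mitochondria by inhibiting pyruvate dehydrogenase. When oxygen is scarce the prolyl hydroxylases (Egln genes) no longer mark HIF-1α and HIF-2α (Hif1a and Epas1) for destruction, and the stabilized factors switch on many of these enzymes through short DNA elements with the core letters ACGTG or GCGTG. The same enzymes also rise in dividing cells and in activated macrophages, so they are known readouts of more than oxygen supply.

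The core letters are shown here for genes whose transcripts carry the results below and for 2 hypoxia genes that did not pass the test. RefSeq promoter windows (GRCm38.p6, 250 bases before to 50 after each start) were found for 35 of the 38 genes. ACGTG or GCGTG on either strand was present in 39 of the 48 windows (81.3%), against 43.8% of all 32851 windows and 57.4% of the 13974 windows of genes kept here. More than 1 match lay in 54.2% of the members' windows, against 20.6% of all windows and 30.2% of those of genes kept here. CACGTG was counted as 2 matches because it reads ACGTG on both strands. A match is a description of letters and not evidence of a bound site. In the following 120 bases before the most upstream RefSeq start, written 5′ to 3′ along the gene, capitals mark these core letters on either strand.
Ldha, chr7:46845684-46845803, plus strand: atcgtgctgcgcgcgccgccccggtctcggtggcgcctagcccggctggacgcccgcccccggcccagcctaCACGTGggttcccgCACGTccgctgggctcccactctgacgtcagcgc
Slc16a3, chr11:120948947-120949066, plus strand: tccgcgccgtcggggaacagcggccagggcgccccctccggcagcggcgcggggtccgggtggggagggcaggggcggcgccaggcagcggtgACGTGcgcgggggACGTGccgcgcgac
Gapdh, chr6:125165774-125165893, minus strand: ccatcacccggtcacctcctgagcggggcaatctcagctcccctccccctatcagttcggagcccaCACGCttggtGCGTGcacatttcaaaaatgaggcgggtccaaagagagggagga
Eno1, chr4:150236588-150236707, plus strand: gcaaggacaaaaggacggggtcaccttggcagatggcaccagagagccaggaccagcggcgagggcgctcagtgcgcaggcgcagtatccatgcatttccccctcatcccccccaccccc
Pgk1, chrX:106186980-106187099, plus strand: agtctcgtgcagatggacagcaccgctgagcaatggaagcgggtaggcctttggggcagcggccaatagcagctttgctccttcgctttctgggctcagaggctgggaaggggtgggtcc
Pfkfb3, chr2:11553930-11554049, minus strand: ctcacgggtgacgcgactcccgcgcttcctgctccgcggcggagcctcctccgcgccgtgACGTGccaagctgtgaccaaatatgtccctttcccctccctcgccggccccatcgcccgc
Bnip3, chr7:138909507-138909626, minus strand: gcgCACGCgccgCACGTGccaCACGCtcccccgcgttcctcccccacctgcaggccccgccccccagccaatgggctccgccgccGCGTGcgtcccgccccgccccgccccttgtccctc
Adm, chr7:110627537-110627656, plus strand: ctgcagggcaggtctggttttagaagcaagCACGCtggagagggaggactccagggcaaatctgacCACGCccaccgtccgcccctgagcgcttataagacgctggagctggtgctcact
Ldha and Bnip3 each held a CACGTG in this stretch, Slc16a3 held 2 ACGTG matches and Gapdh held 2 matches of the GCGTG kind. The Eno1 and Pgk1 stretches held no match, although the whole window of each held 2.

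Levels are given as log2 of the processed signal minus the 75th percentile of the same array, which places a probe on a common scale across arrays but does not allow one gene's level to be set against another's. The well-above-background share of spots ran from 55.4% to 61.2% and no spot was saturated. WT day 3 replicate 4 stood apart. Its mean for 9 proliferation markers was 0.68 against 3.33 and 3.24 on the other 2 WT day 3 arrays, and its mean for 5 smooth muscle markers was 4.76, at the top of the unchallenged WT values of 4.68 to 4.76, against lower values of 3.82 and 4.0 on the other 2. Its correlation with the other WT day 3 arrays was 0.964 and 0.970, against 0.984 between those 2. The unchallenged smSocs3-KO replicate 1 stood apart as well, with correlations of 0.964 and 0.965 with the other 2 arrays of its group, against 0.989 between those. All 6 WT arrays and smSocs3-KO before-challenge replicate 1 lay on 1 slide and the other 5 smSocs3-KO arrays on a second slide, so that genotype at day 3 went with slide and that replicate alone linked the slides. Socs3 itself was not lower under the smSocs3-KO label, with a genotype difference of 0.49 before challenge and 1.53 at day 3 (adjusted p = 0.999 and 0.205), and whether its probe lies in the deleted part was not determined. All 8 smooth muscle markers, all 9 macrophage markers, 5 of 6 red blood cell markers and 10 of 12 proliferation markers had a kept probe. In whole tissue fewer cells of a type and less RNA per cell cannot be told apart.

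**Figure D1:**
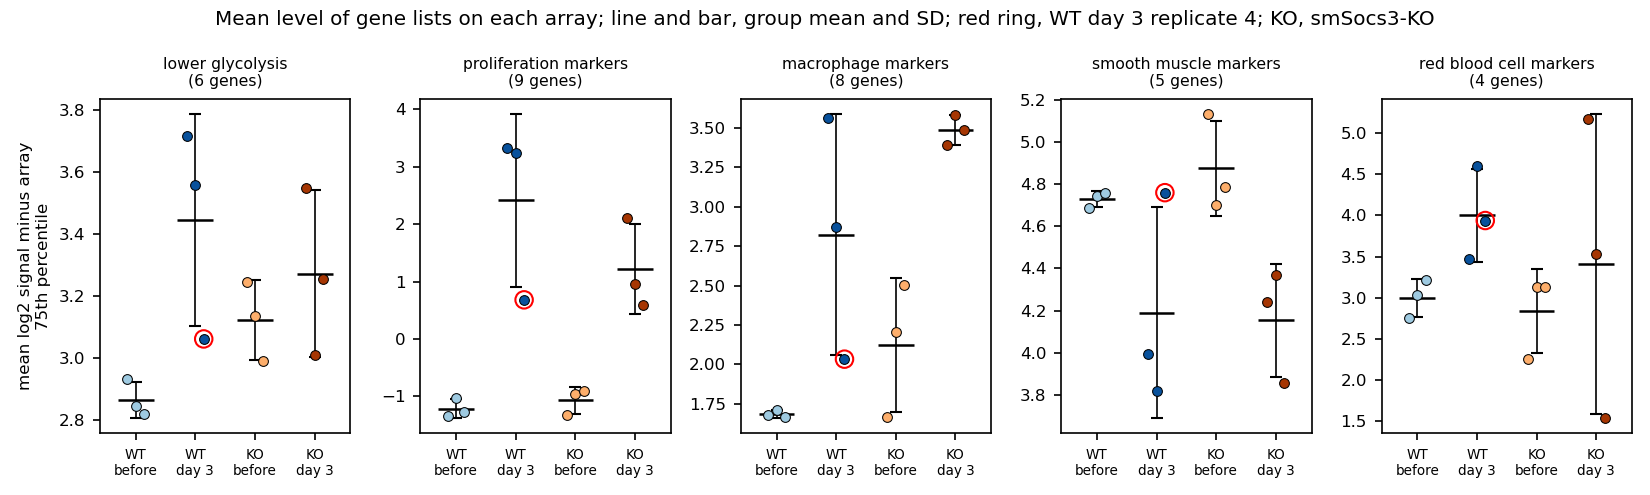
Mean log2 level (signal minus the 75th percentile of the array) of the lower glycolysis genes and of 4 marker lists on each of the 12 arrays, over the genes of each list with a value on every array. Points are arrays, lines group means and bars SD. WT day 3 replicate 4 (red ring) lies below the other WT day 3 arrays for lower glycolysis, proliferation and macrophage markers and above them for smooth muscle markers.

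In WT aorta the transcripts of 3 enzymes of lower, ATP-yielding glycolysis (Gapdh, Pgk1 and Eno1), of lactate dehydrogenase A and of the lactate exporter Slc16a3 rose after BAPN+AngII, by 1.75- to 2.57-fold. None of the 6 other hypoxia-induced genes passed the test in either genotype. In smSocs3-KO aorta the phosphofructokinase regulator Pfkfb3 rose by 2.72-fold. At an adjusted p under 0.05, 5 of the 37 members tested were higher (Slc16a3, Pgk1, Eno1, Ldha and Gapdh), where 3.34% of all 22531 genes tested were higher, and 0 were lower, where 1.07% of all genes were. In smSocs3-KO aorta 1 of 38 members was higher (Pfkfb3), where 1.59% of all genes were higher, and 0 were lower, where 0.685% of all genes were. The median change of the members was 0.20 in WT aorta and 0.27 in smSocs3-KO aorta, against -0.02 and -0.06 over all genes tested. An unadjusted p under 0.05 was found for 12 of 37 members in WT aorta (26.4% of all genes) and 12 of 38 in smSocs3-KO aorta (23.6% of all genes), or 32.4% and 31.6% of the members. Higher values on every day 3 array than on any array before challenge were seen for 12 members in WT aorta (20.6% of all genes) and 12 in smSocs3-KO aorta (14.5%). The reverse was seen for 2 members in WT aorta, Adm and Pfkp (15.1% of all genes), and 1 in smSocs3-KO aorta, Pfkp (14.3%). The WT and smSocs3-KO responses share no array, and 28 of 37 members had the same sign in both (75.7%), which is close to 76.6% for all genes. No member passed the threshold of the study, a p under 0.01 with a change of over 4-fold, in any of the comparisons, where 1.27% of all genes passed in WT aorta and 1.59% in smSocs3-KO aorta.

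**Figure D2:**
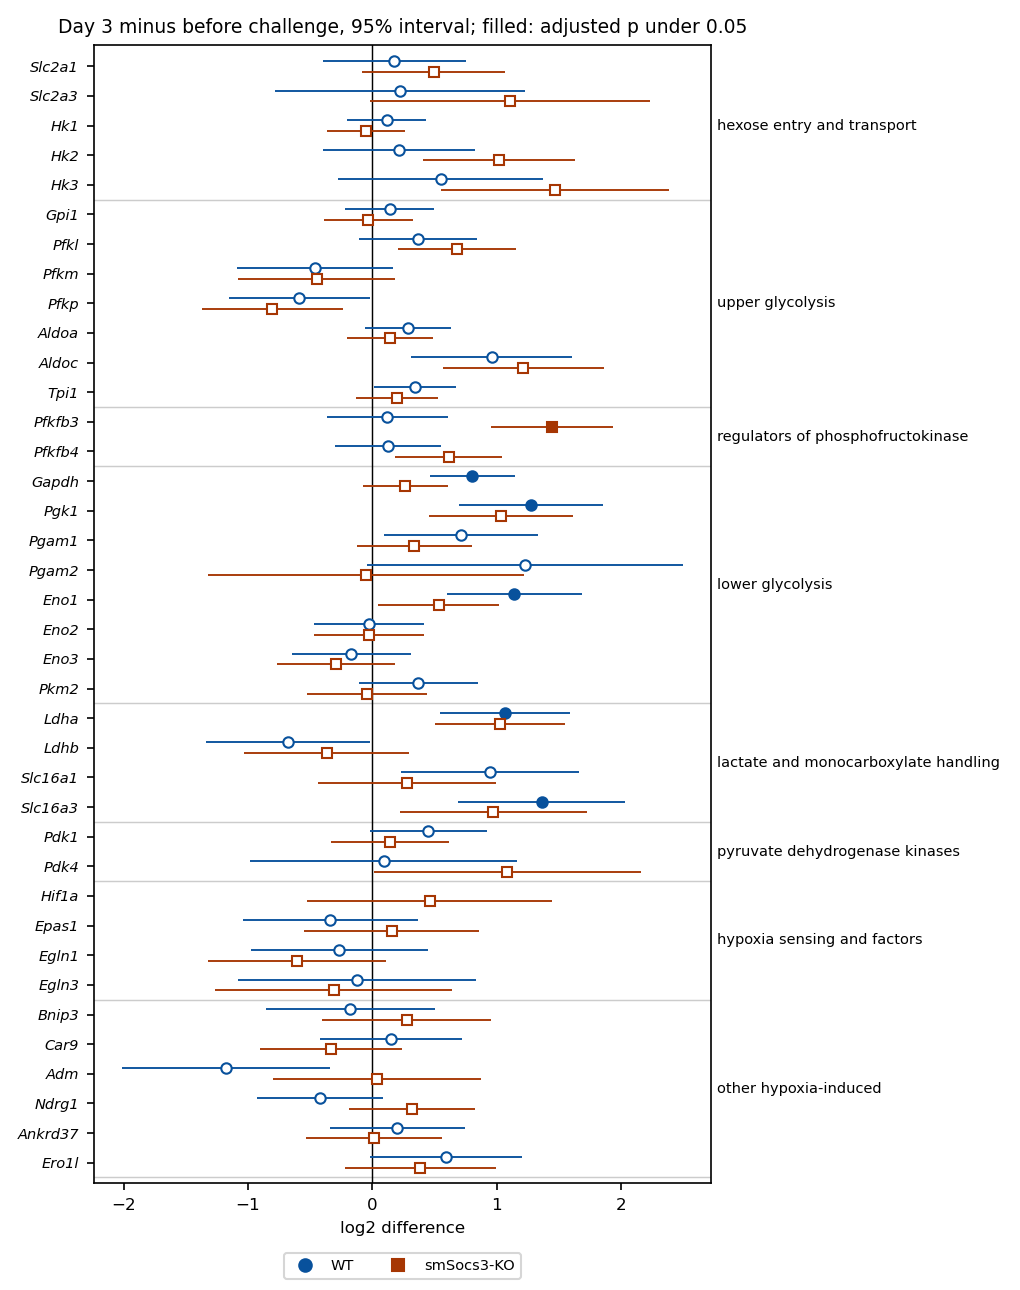
Change of the 38 genes at day 3 as a log2 difference from unchallenged aorta, ordered by role, in WT (circles) and smSocs3-KO aorta (squares), with 95% intervals from limma. Filled symbols passed an adjusted p under 0.05. They are Gapdh, Pgk1, Eno1, Ldha and Slc16a3 in WT aorta and Pfkfb3 in smSocs3-KO aorta. Hif1a has no WT value because its spots were marked as outliers on all 3 unchallenged WT arrays.

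Among the 8 lower glycolysis genes, 3 rose in WT aorta and the median change was 0.76. Eno1 encodes the main enolase, which makes phosphoenolpyruvate. Its levels were 5.21 and 5.28 before challenge, with the third spot marked as an outlier and left out, and 6.59, 6.45 and 6.12 at day 3. In smSocs3-KO aorta they were 5.68, 5.50 and 5.19 before and 6.33, 5.65 and 6.01 at day 3. The WT groups were apart while the smSocs3-KO groups overlapped. The change was 1.14 ± 0.24 (SE) in WT aorta, or 2.21-fold (adjusted p = 0.0386), and 0.54 ± 0.22 in smSocs3-KO aorta (adjusted p = 0.181).

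Gapdh, the dehydrogenase that opens the pay-off phase and a common reference transcript, measured 8.10, 7.99 and 8.12 before challenge and 9.02, 8.91 and 8.68 at day 3 in WT aorta. In smSocs3-KO aorta it measured 8.22, 8.30 and 8.06 before and 8.66, 8.30 and 8.42 at day 3. All WT day 3 values lay above every smSocs3-KO day 3 value. The WT change was 0.80 ± 0.16 (SE), or 1.75-fold (adjusted p = 0.0343), and the smSocs3-KO change 0.27 ± 0.16 (adjusted p = 0.317). The probe used, the brightest of 8, is placed by the array files outside the gene, at chr7:59003199-59003257 (mm9), and Gapdh has many processed copies, so it may read a copy as well. The other 7 probes were also higher at day 3 in both genotypes. Another of them is placed outside the gene as well, at chr8:94212520-94212579, and those at chr6:125111869-125111928 and chr6:125111878-125111937 overlap. Over all 8 probes the change was at least 0.67 in WT aorta and ran from 0.01 to 0.46 in smSocs3-KO aorta.

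Pgk1, phosphoglycerate kinase, makes the first ATP of the pathway and had 1 probe. Its levels in WT aorta were 3.39, 3.65 and 3.84 before challenge and 5.30, 4.99 and 4.43 at day 3. In smSocs3-KO aorta they were 3.49, 4.23 and 4.06 before and 5.01, 4.71 and 5.17 at day 3. Neither genotype's groups overlapped. The changes were 1.28 ± 0.26 (SE), or 2.42-fold, in WT aorta (adjusted p = 0.0349) and 1.04 ± 0.26 in smSocs3-KO aorta (adjusted p = 0.0651). The array files place this probe at chr3:57906830-57906894 (mm9) although the gene lies on the X chromosome, so the value may come in part from a copy and is uncertain.

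The remaining lower glycolysis genes did not pass the test. Pgam1, the widely expressed phosphoglycerate mutase, changed by 0.71 ± 0.26 (SE) in WT aorta (adjusted p = 0.145) and by 0.34 ± 0.19 in smSocs3-KO aorta, with its spots on 4 arrays left out as outliers. The unchallenged WT group was then 1 array (4.80), assumed to vary like the other groups. With those spots kept, its WT change was 0.65 (adjusted p = 0.0493). Pgam2, the muscle form, changed by 1.23 ± 0.58 in WT aorta and -0.05 ± 0.58 in smSocs3-KO aorta. Pkm2, which names the pyruvate kinase gene of most tissues here, changed by 0.37 and -0.04, Eno2, the neuronal enolase, by -0.03 and -0.03, and Eno3, the muscle enolase, by -0.17 and -0.29.

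**Figure D3:**
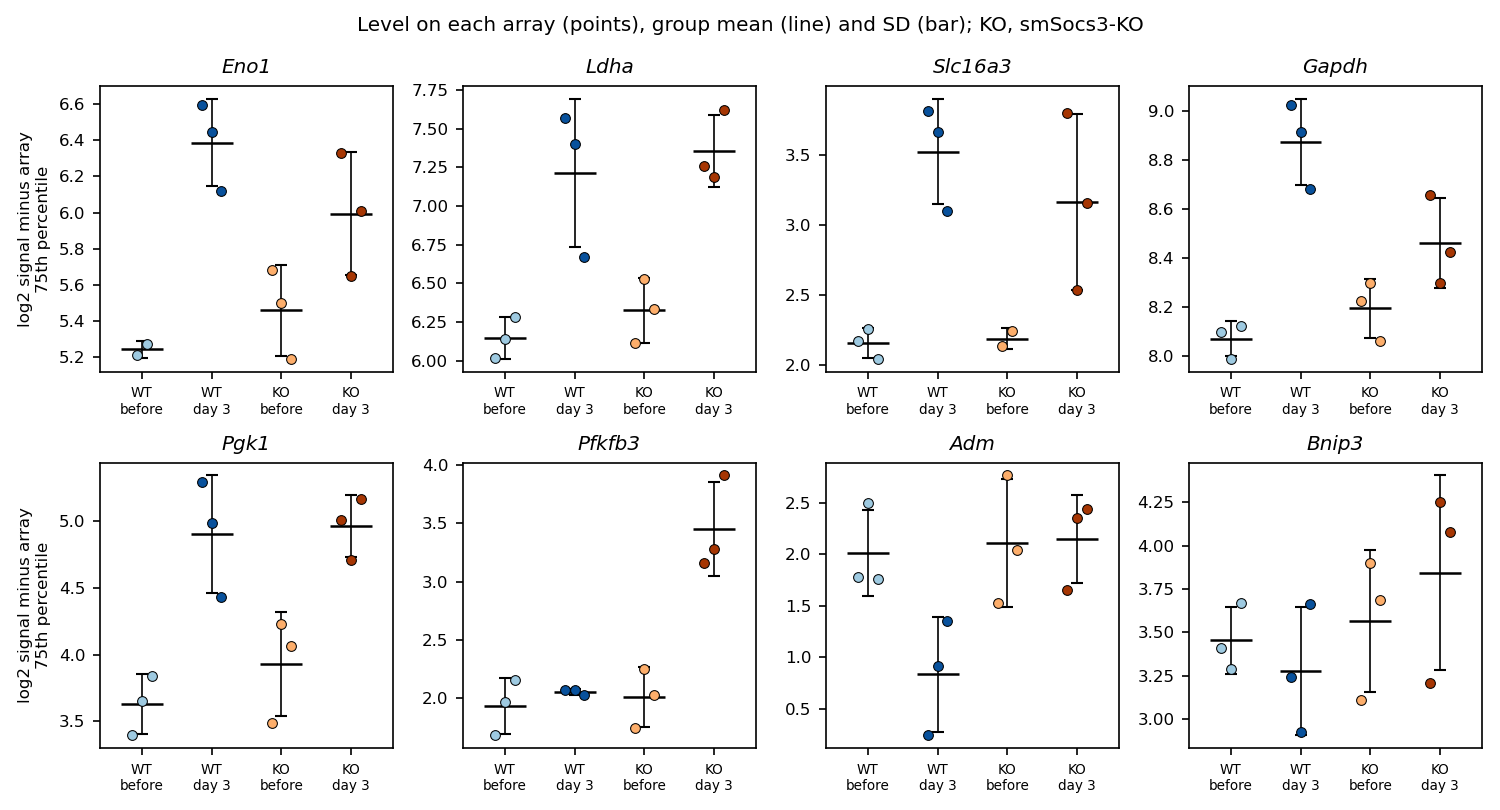
Level of 8 genes on each array, as log2 signal minus the 75th percentile of the array, in WT and smSocs3-KO (KO) aorta before challenge and at day 3. Points are arrays, lines group means and bars SD. Eno1, Ldha, Slc16a3, Gapdh and Pgk1 lie higher on all WT day 3 arrays than on any unchallenged WT array, Pfkfb3 is set apart on the smSocs3-KO day 3 arrays alone, Adm is lower on the WT day 3 arrays, and the groups of Bnip3 overlap.

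The lactate genes included the widest WT change of the set. Slc16a3, the monocarboxylate transporter MCT4 that exports lactate from glycolytic cells, measured 2.17, 2.26 and 2.05 before challenge and 3.81, 3.66 and 3.10 at day 3 in WT aorta. In smSocs3-KO aorta it measured 2.14 and 2.24 before, with 1 spot left out as an outlier, and 3.80, 2.54 and 3.16 at day 3. The day 3 arrays lay above the earlier ones in both genotypes. The change was 1.36 ± 0.30 (SE), or 2.57-fold, in WT aorta (adjusted p = 0.0407) and 0.97 ± 0.34 in smSocs3-KO aorta (adjusted p = 0.133).

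Ldha, the lactate dehydrogenase subunit that favors lactate, measured 6.02, 6.14 and 6.28 before challenge and 7.57, 7.40 and 6.67 at day 3 in WT aorta. In smSocs3-KO aorta it measured 6.11, 6.53 and 6.33 before and 7.26, 7.18 and 7.62 at day 3. The groups did not overlap in either genotype, and the size of the change was nearly equal. It was 1.07 ± 0.24 (SE), or 2.10-fold, in WT aorta (adjusted p = 0.0388) and 1.03 ± 0.24, or 2.04-fold, in smSocs3-KO aorta (adjusted p = 0.0517), with a difference between them of -0.04 (95% interval -0.78 to 0.70). All 3 Ldha probes moved up, by 0.62 to 1.13 in WT aorta and 0.74 to 1.26 in smSocs3-KO aorta. Ldhb, the subunit that favors pyruvate, changed by -0.68 ± 0.30 in WT aorta (adjusted p = 0.180) and -0.37 ± 0.30 in smSocs3-KO aorta, so the 2 subunits had opposite signs. Slc16a1, the widely expressed transporter MCT1, changed by 0.95 ± 0.32 in WT aorta (adjusted p = 0.103) and 0.28 ± 0.32 in smSocs3-KO aorta.

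The 5 genes called in WT aorta are set here beside markers of other processes. On WT day 3 replicate 4 each of the 5 had its lowest day 3 level. That array was the lowest of its group for proliferation and macrophage markers and at the top of the unchallenged WT values for smooth muscle markers. A gene called higher is likely to be lowest on an array near the unchallenged ones, so this order cannot set the 5 beside 1 marker list in particular. The share of all genes called in WT aorta that were lowest on that array was not counted. The mean of 9 proliferation markers went from between -1.34 and -1.03 before challenge to between 0.68 and 3.33 at day 3 in WT aorta and from between -1.33 and -0.91 to between 0.60 and 2.11 in smSocs3-KO aorta. Of the 10 tested, 9 proliferation genes rose in WT aorta and 1 in smSocs3-KO aorta. The mean of 8 macrophage markers went from between 1.66 and 1.71 to between 2.03 and 3.56 in WT aorta (0 of 9 passed the test) and from between 1.66 and 2.50 to between 3.39 and 3.58 in smSocs3-KO aorta (3 of 9 rose). The mean of 5 smooth muscle markers went from between 4.68 and 4.76 to between 3.82 and 4.76 in WT aorta and from between 4.70 and 5.13 to between 3.85 and 4.37 in smSocs3-KO aorta, with 0 of 8 passing the test in either. Means of 4 red blood cell markers were 2.75 to 3.21 before and 3.47 to 4.60 at day 3 in WT aorta. In smSocs3-KO aorta they were 2.25 to 3.14 before and 1.53 to 5.17 at day 3, with 0 of 5 passing the test in either genotype. The part of these cells in the changes was not tested. Without WT day 3 replicate 4, 9 members passed the test in WT aorta, and the calls over all genes went from 994 to 3577 of 22694. Ldha then changed by 1.34. The 9 were the same 5 genes with Pgam2 (1.84), and in the lower direction Ldhb (-1.04), Pfkp (-0.84) and Adm (-1.43). The 5 calls lay near the threshold. None of them passed once any other single WT array was left out or without smSocs3-KO before-challenge replicate 4. Each of these omissions cut the calls over all genes from 994 to at most 13, so the loss was not particular to these 5. None of the 5 passed under quantile normalization (581 calls over all genes), where Ldha changed by 0.77 and Gapdh by 0.61. Eno1, Ldha and Slc16a3 were each lost also without at least 1 smSocs3-KO day 3 array, where 493 to 662 genes were called.

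**Figure D4:**
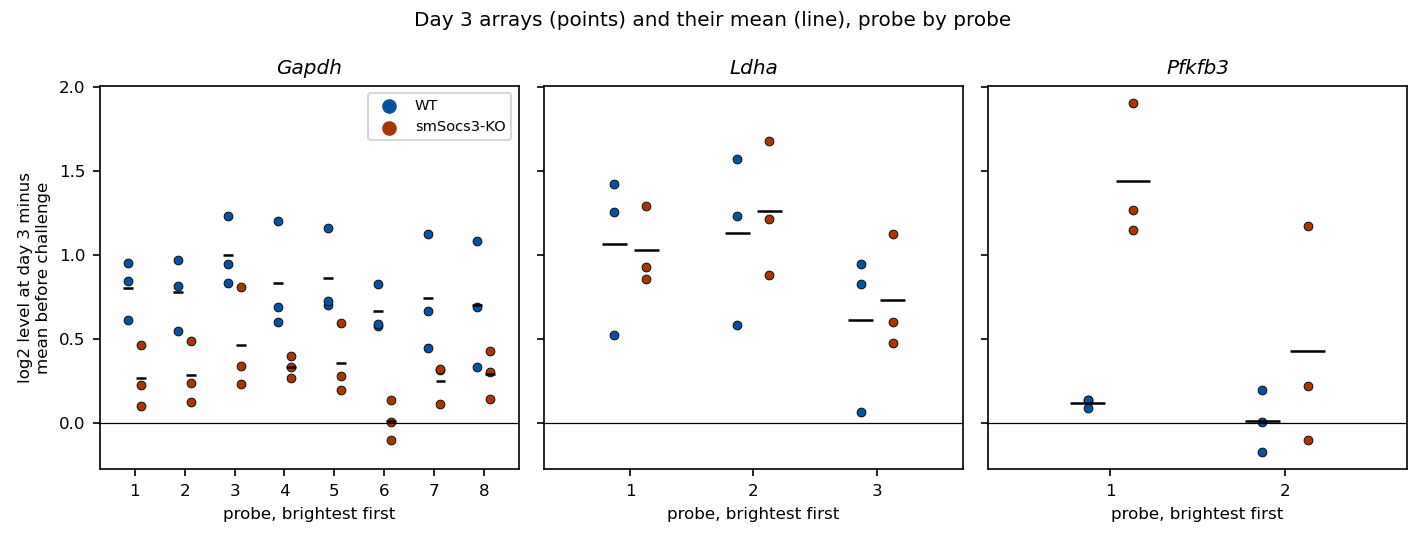
Log2 level on each day 3 array minus the mean before challenge in the same genotype, for every kept probe of Gapdh (8 probes), Ldha (3) and Pfkfb3 (2), brightest first. Points are arrays and lines their mean. Every Gapdh probe has a higher mean in WT than in smSocs3-KO aorta, the Ldha probes move alike in both genotypes, and the brighter Pfkfb3 probe moves on the smSocs3-KO arrays only.

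The entry of hexose showed no called change in either genotype. Hk2, the inducible hexokinase, measured 0.73, 0.50 and 1.13 before challenge and 0.86, 0.74 and 1.40 at day 3 in WT aorta, against 0.59, 0.78 and 0.59 before and 1.44, 1.31 and 2.27 at day 3 in smSocs3-KO aorta. The WT groups overlapped and the smSocs3-KO groups did not. Its change was 0.21 ± 0.28 (SE) in WT aorta and 1.02 ± 0.28 in smSocs3-KO aorta (adjusted p = 0.0757). Hk3, the hexokinase of myeloid cells, changed by 0.55 ± 0.37 and 1.47 ± 0.41 (adjusted p = 0.364 and 0.0850), the latter without 1 outlier spot. Hk1, the housekeeping form, changed by 0.12 and -0.05. The glucose transporters Slc2a1 (GLUT1) and Slc2a3 (GLUT3) changed by 0.18 and 0.22 in WT aorta and by 0.49 and 1.11 in smSocs3-KO aorta, with adjusted p from 0.217 to 0.783. The median over these 5 genes was 0.21 in WT and 1.02 in smSocs3-KO aorta, and the interaction, the difference between the 2 responses, had adjusted p of at least 0.951 for each of them.

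Upper glycolysis held members of opposite sign and no call. Aldoc, the brain-type aldolase, changed by 0.96 ± 0.29 (SE) in WT aorta and 1.22 ± 0.29 in smSocs3-KO aorta (adjusted p = 0.0774 and 0.0590), with the groups apart in both. The 3 phosphofructokinase genes differed. Pfkl, the liver type, changed by 0.37 ± 0.22 and 0.68 ± 0.22 (adjusted p = 0.301 and 0.106), Pfkm, the muscle type, by -0.46 ± 0.29 and -0.45 ± 0.29 (0.324 and 0.360), and Pfkp, the platelet type, by -0.59 ± 0.26 and -0.80 ± 0.26 (0.175 and 0.107). Both Pfkp probes were lower at day 3, at -0.72 and -0.59 in WT aorta and -0.81 and -0.80 in smSocs3-KO aorta. Gpi1, Aldoa and Tpi1, the isomerases and the main aldolase, changed by 0.14, 0.29 and 0.34 in WT aorta and by -0.03, 0.14 and 0.20 in smSocs3-KO aorta, with adjusted p of at least 0.173.

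Pfkfb3 was the one member called in smSocs3-KO aorta. It makes fructose 2,6-bisphosphate, the strongest activator of phosphofructokinase, and is known as a driver of glycolysis in endothelial and inflammatory cells. Its levels in WT aorta were 1.68, 1.96 and 2.15 before challenge and 2.07, 2.07 and 2.02 at day 3. In smSocs3-KO aorta they were 1.74, 2.25 and 2.03 before and 3.16, 3.28 and 3.91 at day 3. The smSocs3-KO day 3 arrays were above all 9 others, which lay within a range of 1.68 to 2.25. The change was 1.44 ± 0.22 (SE), or 2.72-fold, in smSocs3-KO aorta (adjusted p = 0.0172) and 0.12 ± 0.22 in WT aorta (adjusted p = 0.751). The difference between the responses was 1.32 ± 0.31 (95% interval 0.63 to 2.01), with an unadjusted p of 0.00154 and an adjusted p of 0.683, so it did not pass across all genes.

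The probe behind this value lies at chr2:11393453-11393512 (mm9). A second, much dimmer Pfkfb3 probe changed by 0.43 in smSocs3-KO aorta and 0.01 in WT aorta, and averaging the 2 probes gave 0.94 and ended the call. With slide as a block, which also is the value within the second slide, the smSocs3-KO change was 1.31 (adjusted p = 0.0599). Leaving out the unchallenged replicate 1 gave the same 1.31 and also ended the call, while the calls over all genes went from 519 to 55. Without smSocs3-KO day 3 replicate 5 the change was 1.21 and the call was also lost, while the calls over all genes went from 519 to 48. Pfkfb4, a second such enzyme and itself a hypoxia-induced gene, changed by 0.61 ± 0.19 in smSocs3-KO aorta (adjusted p = 0.104) and 0.13 ± 0.19 in WT aorta. The mean of the macrophage markers on the smSocs3-KO day 3 arrays, 3.39 to 3.58, was above that of all other arrays except WT day 3 replicate 1 at 3.56, where Pfkfb3 was 2.07. The mean of 5 fibroblast markers split as Pfkfb3 did, with 4.96 to 5.49 on the smSocs3-KO day 3 arrays and at most 4.68 on every other array. In the smSocs3-KO response 0 of 6 fibroblast markers were called. Between genotypes at day 3, where genotype went with slide, 2 of 5 (Dpt and Pi16) were called higher in smSocs3-KO aorta (0.939% of all genes). The mean of 6 neutrophil markers went from between -1.26 and -0.02 before challenge to between -0.14 and 1.78 in smSocs3-KO aorta (1 of 7 tested, Ly6g, rose). In WT aorta it went from between -1.09 and -0.46 to between -0.52 and 0.46 (1 of 7, Mpo, rose). The mean of 8 adipocyte markers went from between 0.62 and 2.32 to between 1.2 and 3.23 in smSocs3-KO aorta (0 of 8 rose). In WT aorta it went from between 1.12 and 2.24 to between 0.36 and 3.07 (0 of 8 rose). The part of these cells in the Pfkfb3 values was not tested.

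The pyruvate dehydrogenase kinases did not pass the test. Pdk1, the hypoxia-induced form, changed by 0.45 ± 0.21 (SE) in WT aorta and 0.14 ± 0.21 in smSocs3-KO aorta (adjusted p = 0.209 and 0.700). Pdk4, the form induced by fasting and fatty acids, changed by 0.09 ± 0.49 and 1.09 ± 0.49 (0.919 and 0.209). Its levels ranged widely, from 0.17 to 1.87 on WT day 3 arrays and from 1.62 to 2.84 on smSocs3-KO day 3 arrays.

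Of the factors themselves, Hif1a could be read only in part. Its spots were marked as outliers on all 3 unchallenged WT arrays, WT day 3 replicates 1 and 4 and 1 unchallenged smSocs3-KO array, which left 2.19 in WT aorta at day 3, 1.76 and 1.05 in smSocs3-KO aorta before challenge and 2.45, 1.33 and 1.81 at day 3. With the marked spots kept, its levels were 0.89, 1.29 and 1.37 before and 2.31, 2.19 and 1.89 at day 3 in WT aorta, and 0.43, 1.76 and 1.05 before and 2.45, 1.33 and 1.82 at day 3 in smSocs3-KO aorta. On that reading the WT groups were apart and the smSocs3-KO groups overlapped. The changes were then 0.95 ± 0.35 (SE) in WT aorta (adjusted p = 0.120) and 0.79 ± 0.35 in smSocs3-KO aorta (adjusted p = 0.202).

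Epas1, which encodes the HIF-2α of endothelium and other cells, measured 5.76, 5.85 and 6.02 before challenge and 5.25, 5.29 and 6.08 at day 3 in WT aorta, and 4.85, 5.87 and 6.04 before and 5.47, 5.86 and 5.91 at day 3 in smSocs3-KO aorta. The groups overlapped in both genotypes, with changes of -0.34 ± 0.32 and 0.16 ± 0.32 (adjusted p = 0.523 and 0.781). The prolyl hydroxylases Egln1 and Egln3, of which Egln3 is itself induced by HIF, changed by -0.26 and -0.12 in WT aorta and by -0.61 and -0.31 in smSocs3-KO aorta, with adjusted p from 0.279 to 0.880.

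The 6 other hypoxia-induced genes had a median change of -0.01 in WT aorta and 0.16 in smSocs3-KO aorta, and none was called. Bnip3, a mitophagy receptor, measured 3.41, 3.29 and 3.67 before and 3.24, 2.92 and 3.66 at day 3 in WT aorta, with overlapping groups and a change of -0.18 ± 0.31 (SE), and its 3 probes ran from -0.47 to -0.18. Its 120 bases above held 5 matches of the core letters, more than any other stretch shown. Car9, the membrane carbonic anhydrase that is a standard hypoxia marker, changed by 0.15 and -0.33, Ankrd37 by 0.20 and 0.01, and Ero1l, an oxidase of protein folding, by 0.59 and 0.39 in WT and smSocs3-KO aorta, with adjusted p from 0.200 to 0.978.

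Adm and Ndrg1 pointed down in WT aorta. Adm, the vasodilator peptide adrenomedullin, measured 1.78, 2.49 and 1.76 before challenge and 0.24, 0.91 and 1.35 at day 3 in WT aorta, against 1.52, 2.77 and 2.05 before and 1.66, 2.35 and 2.44 at day 3 in smSocs3-KO aorta. The WT groups were apart and the smSocs3-KO groups overlapped. The changes were -1.18 ± 0.38 (SE) and 0.04 ± 0.38 (adjusted p = 0.0886 and 0.961). Ndrg1, a stress-induced growth regulator, changed by -0.42 ± 0.23 and 0.32 ± 0.23 (0.267 and 0.416).

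Before challenge the genotypes were not told apart by any member. At an adjusted p under 0.05, 0 of 37 members were higher in smSocs3-KO aorta (0.0266% of all genes) and 0 were lower (0% of all genes), and by limma 1 member had an unadjusted p under 0.05 (4.63% of all genes). That gene was Pfkl, at -0.92, -0.86 and -0.78 in WT and -0.64, -0.50 and 0.25 in smSocs3-KO aorta. The groups did not overlap for 4 members that were higher in smSocs3-KO aorta (7.12% of all genes) and for 0 that were lower (5.42%). They were Pfkl (0.55), Aldoc (0.59), Gpi1 (0.21) and Pgam1 (0.22), the last with 1 unchallenged WT array left. With the marked spots kept Pgam1 measured 4.66, 4.80 and 5.03 in WT and 4.75, 5.17 and 4.88 in smSocs3-KO aorta, and the groups overlapped, which leaves 3 such members. The median difference of the members was 0.12, against 0.00 for all genes. The threshold of the study was passed by 0.244% of all genes and by 0 members.

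**Figure D5:**
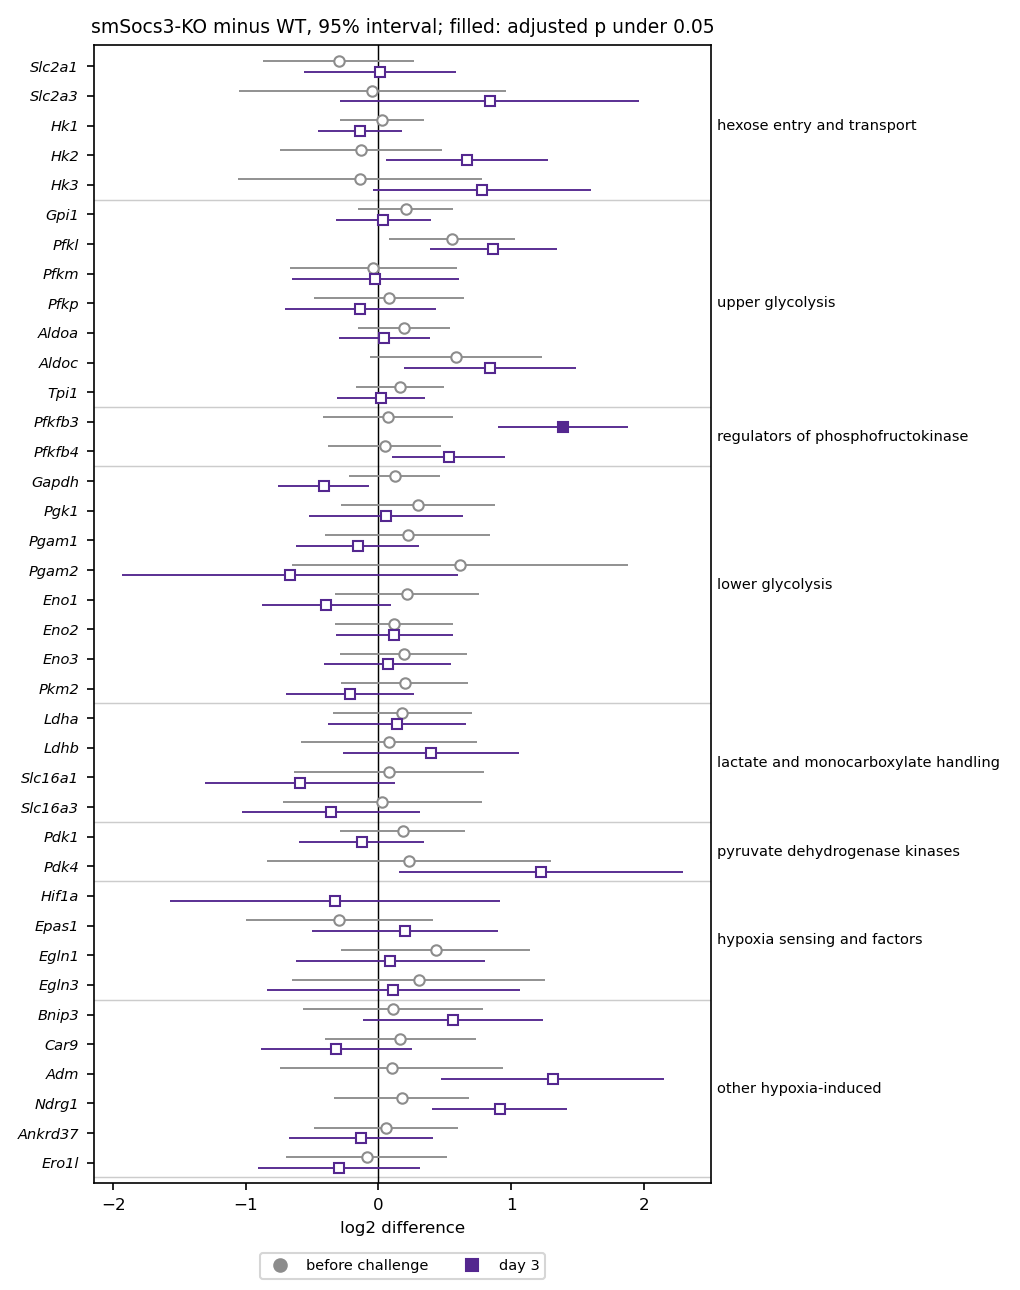
Log2 difference between smSocs3-KO and WT aorta for the 38 genes, ordered by role, before challenge (circles) and at day 3 of BAPN+AngII (squares), with 95% intervals from limma. Only Pfkfb3 at day 3 (1.40, filled) passed an adjusted p under 0.05. At day 3 all WT arrays lay on one slide and all smSocs3-KO arrays on the other.

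At day 3 Pfkfb3 was higher in smSocs3-KO than in WT aorta by 1.40 ± 0.22 (SE), or 2.63-fold (adjusted p = 0.0216). It was the 1 member of 38 called higher (0.939% of all genes), and 0 were called lower (0.154% of all genes). With slide as a block, which rests on the single smSocs3-KO array of the first slide, the replicate 1 that stood apart, its difference was 0.995 (adjusted p = 0.272), and no within-slide value exists at day 3. The call was also lost without smSocs3-KO day 3 replicate 5 (1.16) or WT day 3 replicate 3 (1.40). These omissions cut the calls over all genes from 248 to 49 and 77, so the loss was not particular to Pfkfb3. An unadjusted p under 0.05 was found for 9 of 38 members (16.1% of all genes), and the study's threshold was passed by 1.1% of all genes and 0 members. Groups that did not overlap were seen for 6 members higher in smSocs3-KO aorta (8.18% of all genes), namely Pfkfb3, Adm, Ndrg1, Pfkl, Slc2a3 and Pfkfb4, and for 1 lower, Gapdh (12.7% of all genes).

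Of these, Adm differed by 1.31 ± 0.38 (SE, adjusted p = 0.135). Ndrg1 lay at 2.79, 3.01 and 3.58 in WT and 3.76, 4.25 and 4.11 in smSocs3-KO aorta at day 3, a difference of 0.92 ± 0.23 (adjusted p = 0.0931). Pfkl lay at -0.39, -0.58 and -0.49 against 0.53, 0.29 and 0.32, a difference of 0.87 ± 0.22 (adjusted p = 0.0882). With slide as a block the differences of Adm, Ndrg1 and Pfkl were 0.43, 0.49 and 0.35. Gapdh differed by -0.41 ± 0.16 (adjusted p = 0.233), with all 8 probes between -0.47 and -0.17. Ldha and Pgk1, both called in WT aorta, differed by 0.14 and 0.06 between the genotypes at day 3.

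For the interaction 0 of 37 members passed in either direction (0% of all genes higher and 0% lower). By limma 4 members had an unadjusted p under 0.05 (5.35% of all genes), Pfkfb3 (1.32), Adm (1.21) and Ndrg1 (0.74) with the larger value in smSocs3-KO aorta and Gapdh (-0.54) with the larger value in WT aorta. Their adjusted p ran from 0.683 to 0.930. The threshold of the study was passed by 0.311% of all genes and 0 members. Thus the calls of 5 genes in WT aorta and 1 other gene in smSocs3-KO aorta were not shown to be a difference between the genotypes.

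Related genes outside the 38 gave calls in the higher direction only, and their counts stand against 3.34% of all genes called higher in WT and 1.59% in smSocs3-KO aorta. Of 26 other glycolysis and glucose-use genes tested, 3 rose in WT aorta and 0 in smSocs3-KO aorta. They included the hexose transporter Slc2a6 (2.92, adjusted p = 0.0344) and the phosphoglucomutase Pgm2 (0.75, 0.0412), with changes of 2.38 and 0.30 in smSocs3-KO aorta. Slc2a6 measured -3.21, -2.94 and -3.47 before and 0.50, 0.60 and -1.96 at day 3 in WT aorta, so that replicate 4 was again the lowest. Of 19 genes of gluconeogenesis, the pentose phosphate pathway and the serine branch, the serine enzyme Psat1 rose in WT aorta (2.41, adjusted p = 0.0333). The NADPH-producing dehydrogenases H6pd (1.05, 0.0330) and G6pdx (0.86, 0.0404) rose in smSocs3-KO aorta, and their WT changes were 0.41 and 0.52. None of 17 genes of pyruvate entry into mitochondria was called in either genotype.

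Among 20 regulators of the HIF pathway, Tceb1 and Tceb2, the elongins of the ubiquitin ligase that removes HIF, rose by 0.73 and 0.70 in WT aorta (adjusted p = 0.0488 and 0.0358), and Hif3a, a HIF-α relative that can restrain the others, rose by 2.12 in smSocs3-KO aorta (adjusted p = 0.0312). Hif3a measured -2.83, -2.27 and -1.10 in WT and 0.02, 0.81 and 0.80 in smSocs3-KO aorta at day 3, a difference of 2.61 ± 0.40 (SE, adjusted p = 0.0176). Of 53 other hypoxia response genes 4 rose in each genotype. In WT aorta they were the collagen cross-linking enzyme Lox (1.49, adjusted p = 0.0400), Tmem45a (1.34, 0.0335), the placental growth factor Pgf (1.24, 0.0374) and the collagen hydroxylase Plod1. In smSocs3-KO aorta they were the mTORC1 inhibitor Ddit4 (3.08, 0.0353), the heme oxygenase Hmox1 (2.58, 0.0386), the repressor Bhlhe40 (1.95, 0.0312) and Pgf (1.31, 0.0389). Ddit4 lay at 1.11, 0.77 and 0.88 in WT and 3.62, 4.54 and 5.31 in smSocs3-KO aorta at day 3 (difference 3.57, adjusted p = 0.0240), although 1 unchallenged smSocs3-KO array already stood at 3.01. For Hif3a and Ddit4 too, genotype at day 3 went with slide. With slide as a block 0 of 21895 genes were called between genotypes at day 3. In the smSocs3-KO response 54 were, against 519 without the block. The medians over the 53 genes were 0.24 in WT and 0.42 in smSocs3-KO aorta.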

How the data were processed

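Total RNA of mouse aorta was labeled with Cy3 and hybridized to 12 one-color Agilent arrays, 1 sample per array. The authors deposited scanner output of Feature Extraction (version 10.7.1.1 per the file headers) with background-subtracted signal intensity per spot, and a value table whose scale is not stated. Each of its columns has a median of 30.2 and follows the rank order of the scanner intensities (Spearman of at least 0.99997). These deposited signal values served only as an alternative. Genome positions of probes are those of the array files (mm9), and exon annotation for them was not used here.

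Control spots and spots marked as outliers were left out. Processed intensities were put on the log2 scale, the 75th percentile of each array was subtracted, and spots of a probe were averaged. A probe was kept when well above background (13 background SDs in the file headers) on all arrays of at least 1 group (32291 of 55681 probes), and the brightest kept probe stood for each gene name. Group means were fitted with limma 3.58.1 in R 4.3.3 over all genes, with moderated variances and Benjamini-Hochberg adjustment over all genes tested. Errors are SE of the fit unless given as SD, and n is 3 arrays per group unless spots were left out. The labels do not say whether arrays of a group are different mice, so p-values measure the spread between arrays. Every one of the 38 genes is named, and values on all arrays are given for those called in any comparison, for Hif1a and Epas1, and for others that were chosen after their values were seen. From each list of related genes up to 3 called genes per response are named, with Plod1 in WT aorta and Pgf in smSocs3-KO aorta added and 1 gene not reported here. The 38 genes, the related lists and the marker lists were chosen with earlier results of these data known. The fit was tested on simulated data. Alternatives were other background corrections, normalizations, filters, probe summaries, variance models, slide or replicate as a block, outlier-marked spots kept (added after seeing the data) and each array left out.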

Additional observations from a re-analysis of the deposited data

How the results depend on the processing

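No called member changed direction under any of the 26 alternatives run for it, but most calls lay close to the threshold. Calls over all genes are given in parentheses. The number of members called in WT aorta (5) was 0 under quantile normalization (581) and with no filter on dim probes (25). It was 0 also with only the groups compared (0) and at the threshold of the study (1.27% of all genes). It was 1 without moderation (265) and 2 in the authors' value table (614). Leaving out 1 array gave 0 to 9. The 0 (over all genes at most 13 calls) came without WT before-challenge replicate 1, 2 or 3, WT day 3 replicate 1 or 3 or smSocs3-KO before-challenge replicate 4. It was 3 without smSocs3-KO day 3 replicate 5 (662) and 9 without WT day 3 replicate 4 (3577 calls over all genes, against 994 with every array). The number in smSocs3-KO aorta (1) was 5 with normexp (784) and 4 with trended and robust moderation (715). It was 3 with median scaling (792) or probes above background on all arrays (522). It was 2 with quantile normalization (427), the authors' table (443), only the groups compared (436) or outlier-marked spots kept (558). It was 0 with the mean of kept probes (518), no moderation (28), slide as a block (54) or the threshold of the study (1.59% of all genes). Leaving out 1 array gave 0 to 7, with 0 without smSocs3-KO before-challenge replicate 1 (55 calls over all genes) or day 3 replicate 5 (48) and 7 without WT day 3 replicate 4 (1802, against 519 with every array). The number between genotypes at day 3 (1, with 248 over all genes) was 0 with the mean of kept probes (251), no moderation (29) or slide as a block (0). It was 0 also with only the groups compared (77) or the threshold of the study (1.1% of all genes). With 1 array left out it was 0 without WT day 3 replicate 3 (77) or smSocs3-KO day 3 replicate 5 (49). It was 2 without WT day 3 replicate 1 (179) or 4 (623) or smSocs3-KO before-challenge replicate 4 (304). It stayed 0 before challenge and for the interaction throughout.

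The median change of the members in WT aorta (0.20) was 0.0646 with quantile normalization, 0.0833 in the authors' table, 0.39 with median scaling and 0.19 to 0.32 with 1 array left out. In smSocs3-KO aorta (0.27) it was 0.44 with median scaling, 0.12 with slide as a block and 0.20 to 0.32 with 1 array left out. Median scaling moved the median of all genes from -0.02 to 0.17 in WT and from -0.06 to 0.14 in smSocs3-KO aorta, about as much as it moved the members. Apart from these constructions, the cause of each move was not tested.

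Whether replicate numbers pair the arrays was not settled. Deviations of same-numbered arrays of different groups correlated from -0.40 to 0.46, and differently numbered arrays were not compared. With the replicate block, 0 members were called in WT aorta, 0 in smSocs3-KO aorta and 0 at day 3, where the block leaves fewer degrees of freedom. Over all 22238 genes tested the calls were 0, 2 and 2, so the loss was not particular to the members.

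The precision is limited by 3 arrays per group, and genotype at day 3 cannot be told apart from slide without the single linking array. No spot was saturated and every member was well above background on all 12 arrays.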
